A study of Mus musculus with 24 samples.

Results

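Polo-like kinases are serine/threonine kinases that carry a polo-box domain, and 4 of them were followed here, Plk1, Plk2, Plk3 and Plk4. They were taken by symbol from the 21671 genes quantified in every sample, and each was found once in each of the 24 samples. RNA was sequenced from splenic B cells, bound by B220 beads, and from the remaining cells of the spleen, a T cell-enriched flow-through called non-B cells, of C57/Bl6 mice of 8 weeks of age. Each cell type was taken from Trp53+/+ mice (4 samples per treatment) and from Trp53-/- mice, which carry the p53 KO deletion allele (2 samples per treatment). The mice were either left unstressed (control, labelled mock) or collected 4 h after whole-body ionizing radiation (IR) at 7 Gy, so that the cells of the irradiated spleen include any that changed in number in the animal. Values are RPKM, reads on a gene scaled to its length and to all reads on exons, which can be compared between genes. The methods count the replicates of a condition as mice, and whether B and non-B samples of one number came from one spleen was not given in the sources used here.

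The Polo-like kinases have divided roles. Plk1 is the mitotic kinase of the family. It is activated by Aurora A with its cofactor Bora, promotes the activation of cyclin B-Cdk1, and acts at centrosomes, kinetochores and the cytokinetic midzone. Plk4 starts centriole duplication together with Stil and Sass6. Plk2 and Plk3, once named Snk and Fnk, are encoded by genes that respond quickly to mitogens and to stress, and Plk2 is known as a transcriptional target of p53. Resting lymphocytes, the bulk of a spleen, do not divide, and mitotic transcripts in that organ come from the dividing minority, which in the mouse includes red cell precursors.

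The depth of the libraries, estimated from the lowest RPKM values, was 4.72 to 11.05 M (mega) reads, with a median of 8.80 M. In the Trp53-/- controls the deleted gene kept an RPKM of 21.6 and 21.7 in B cells, with 23.97 and 25.04 for non-B cells, below the lowest Trp53+/+ control (43.4). After IR it stood at 40.5 and 41.8 in Trp53-/- B cells against 58.7 to 65.8 in Trp53+/+ B cells, while in non-B cells the Trp53-/- samples (34.6 and 36.4) overlapped with the Trp53+/+ samples (35.0 to 38.6). An RPKM per gene does not resolve which exons the remaining reads came from. Cdkn1a, the p53 target that encodes the cell cycle inhibitor p21, checked the genotype labels of the irradiated samples. It stood at 69.6 RPKM or more in the 8 irradiated Trp53+/+ samples and at no more than 2.63 in the 8 Trp53-/- samples of both treatments. The Trp53+/+ controls, at 0.893 to 5.87, overlapped with the Trp53-/- samples, so Cdkn1a does not check the labels of controls. Summed over 9 T cell markers, non-B controls of Trp53+/+ mice held 407 to 599 RPKM and B cell controls 65.2 to 75.9, while 8 B cell markers gave 977 to 1140 RPKM in B cells and still 330 to 532 in non-B cells. Some libraries stood apart. Of 1409 olfactory and vomeronasal receptor genes, which lymphocytes do not use, 5.25% to 12.99% were above 0 in the other 16 libraries, against 6.81% to 47.3% in irradiated Trp53+/+ B cells and 8.37% to 51.2% in irradiated Trp53+/+ non-B cells. The non-B controls 1 and 2 of Trp53+/+ mice also stood apart, with 468 and 462 RPKM summed over 10 erythroid markers against 166 and 176 in controls 3 and 4.

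Plk2 was the member with the largest response. In B cells of Trp53+/+ mice, its RPKM was 2.76, 3.13, 4.03 and 4.13 in the controls and 92.7, 104, 106 and 102 after IR. In non-B cells of these mice it was 4.17, 4.35, 1.97 and 1.68 in the controls and 52.0, 57.8, 54.5 and 56.4 after IR. Every irradiated Trp53+/+ sample thus lay far above every control, and the 2 cell types, which overlapped before IR, were apart after it (the ranges of 51.3% of all genes were apart after IR, whether or not they overlapped before). Plk2 in Trp53-/- B cells stood at 3.78 and 4.26 RPKM in the controls and at 2.88 and 1.56 after IR. The non-B cells of these mice had 1.84 and 0.855 RPKM in the controls and 3.72 and 1.52 after IR. None of the irradiated Trp53-/- samples exceeded the highest Trp53+/+ control.

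**Figure D1:**
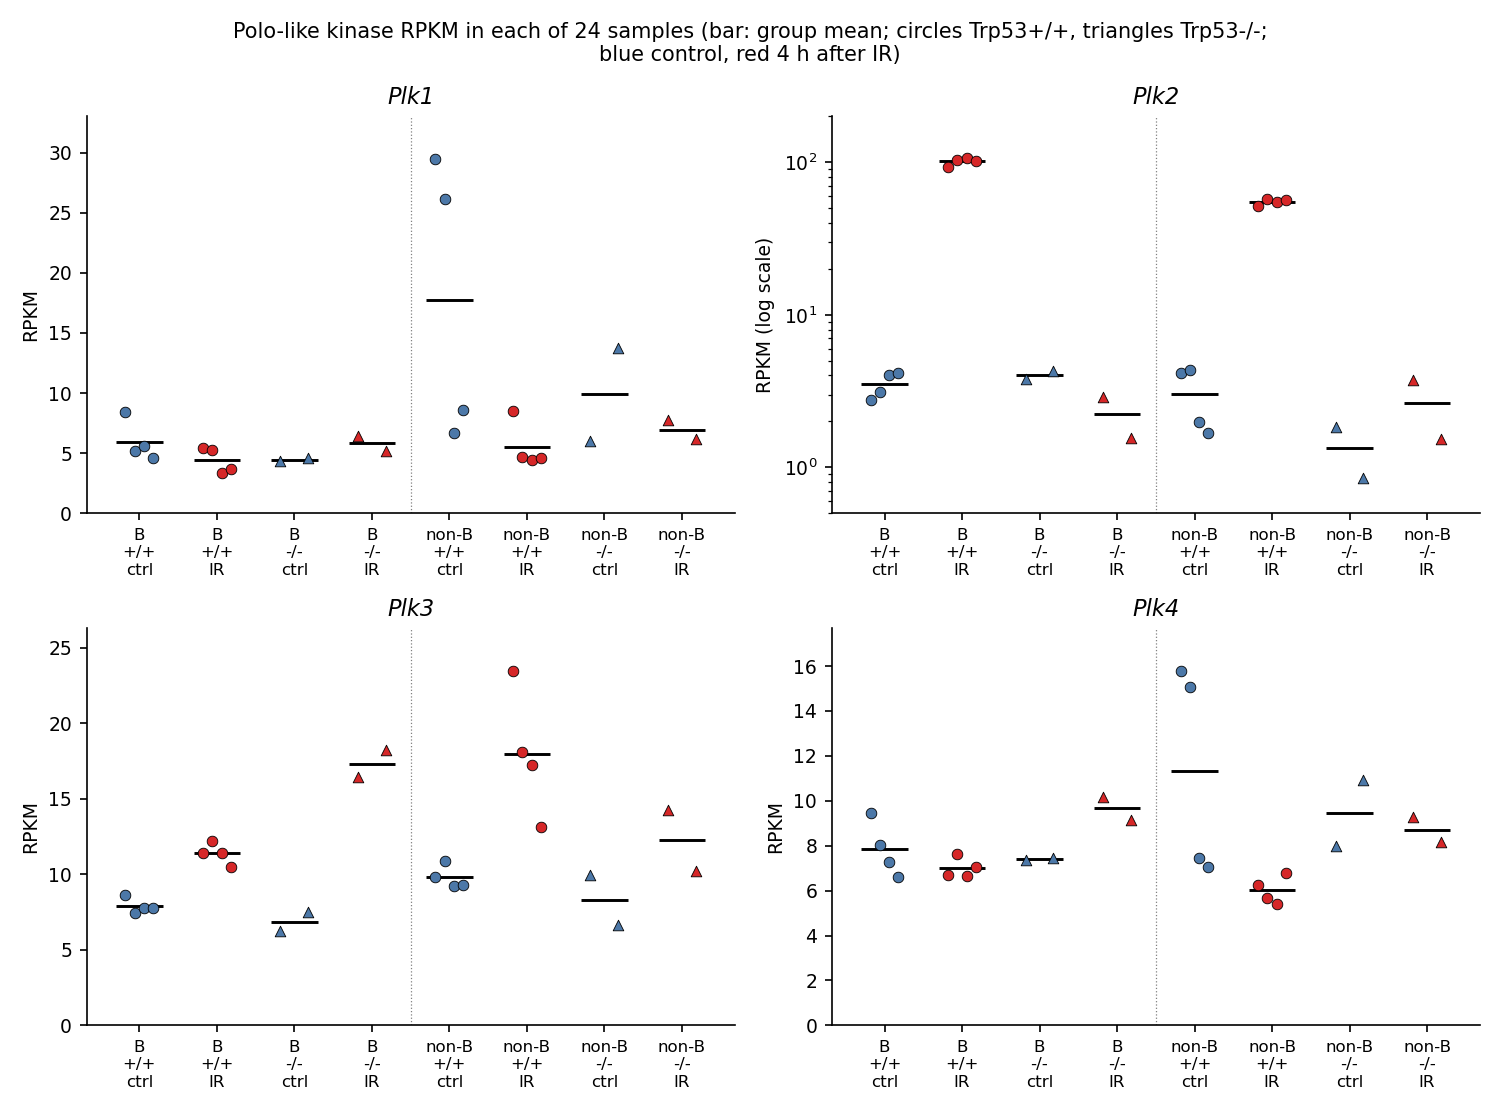
RPKM of the 4 Polo-like kinases in each of the 24 samples, by cell type, Trp53 genotype and treatment (blue control, red IR, circles Trp53+/+, triangles Trp53-/-, bars for group means). The Plk2 axis is logarithmic. Plk2 stands at 52.0 RPKM or more in all 8 irradiated Trp53+/+ samples and at no more than 4.35 in all other samples, and non-B controls 1 and 2 are the highest samples for Plk1 and Plk4.

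Differential expression was tested with limma on log2(RPKM + 0.5), and a gene was called with an adjusted p under 0.05 and a log2 fold change beyond 0.58. Plk2 rose in Trp53+/+ B cells by a log2 fold change of 4.68 (SE 0.15, 95% interval 4.34 to 5.01, limma adjusted p 3.43e-10), the 11th largest rise of the 13821 genes tested, and it was the 1 member of 4 called there, where 24.7% of all genes were called and 12.5% were called higher. The rise in Trp53+/+ non-B cells was 4.06 (SE 0.31, 95% interval 3.39 to 4.74, limma adjusted p 7.07e-06), the 6th largest rise among 14018 genes, of which 5.74% were called higher. As a ratio of mean RPKM the rises were 28.8-fold in B cells and 18.1-fold among non-B cells. Irradiated Trp53+/+ non-B samples still held 228 to 459 RPKM summed over the 8 B cell markers, against 920 to 1041 in irradiated Trp53+/+ B cells. The part of such B cells in the Plk2 values of non-B samples was not tested. The range of the irradiated samples lay apart from that of the controls in both cell types (exact two-sided permutation p = 0.0286, the smallest that 4 against 4 samples allow), which was so, with IR higher, for 22.9% of all genes in B cells and for 10% of those in non-B cells. Plk2 went from a rank of 10167 or lower among all genes in every Trp53+/+ control to ranks of 142 to 256 in irradiated B cells and 580 to 1041 in irradiated non-B cells. The highest value of any gene in any library was 307 RPKM, and since the authors kept 1 read of each set of duplicates, high values can be limited. Whether this lowered the Plk2 values was not tested.

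The rise of Plk2 differed between genotypes. With p53 the response was larger than without it, by 5.45 on the log2 scale in B cells (SE 0.27, limma adjusted p 5.73e-08) and by 3.35 in non-B cells (SE 0.53, limma adjusted p 0.00507). Such a genotype difference passed for 18.8% of all genes in B cells and for 7.35% of those in non-B cells, and 8.14% and 3.98% passed with a higher response in Trp53+/+ cells. Among Trp53-/- B cells Plk2 was called lower after IR, by a log2 fold change of -0.77 (SE 0.22, limma adjusted p 0.0127), with 24.3% of all genes called and 11.2% called lower. That call rested on 2 samples per group. It was lost without irradiated sample 2, when the log2 fold change was -0.42, without control 2 (-0.70) and after quantile normalization (-0.70, limma adjusted p 0.0700). The log2 fold change of Plk2 in Trp53-/- non-B cells was 0.71 (SE 0.43) and did not pass (limma adjusted p 0.468), where 0.442% of all genes were called.

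**Figure D2:**
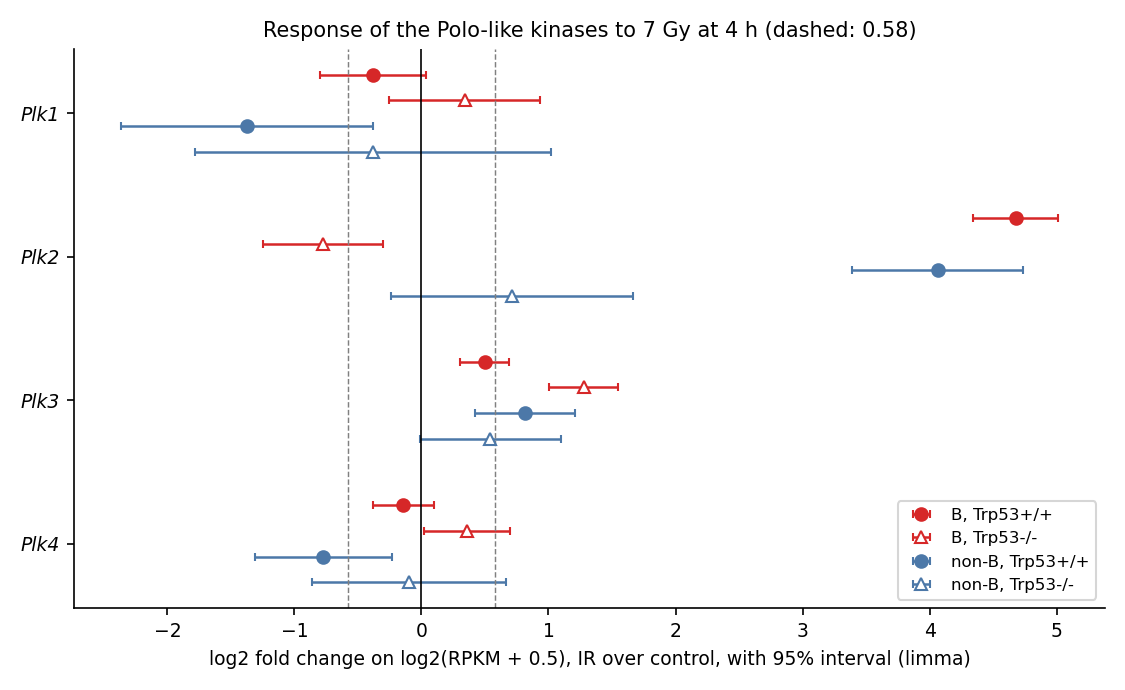
log2 fold change on log2(RPKM + 0.5) of each Polo-like kinase, IR over control, with its 95% interval from limma, in B cells (red) and non-B cells (blue) of Trp53+/+ (filled circles) and Trp53-/- mice (open triangles), with dashed lines at -0.58 and 0.58. Plk2 lies at 4.68 and 4.06 in Trp53+/+ cells and at -0.77 and 0.71 in Trp53-/- cells, and Plk3 lies to the right of 0 in all 4 groups.

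Plk2 lies on the plus strand at chr13:111185252-111191052 (mm9), and no other annotated gene overlaps it. A p53 response element consists of a pair of decamers, each with a C and a G at its core, and the window from 5000 bases before to 2000 bases after the start of each protein-coding gene was searched in mm9 for an unspaced pair of 20 bases that kept these core bases. At most 2 mismatches were found in 7.03% of 22238 windows, and at least 2 such elements in 0.49%. The Plk2 window held 2 of them, with 2 mismatches each, at chr13:111183090-111183109, 2162 bases before the start, and at chr13:111184602-111184621, 650 bases before it. The best elements in the windows of Plk1, Plk3 and Plk4 had 4 mismatches, as had at least 1 element of equal or better match in 67.23% of windows. Both Plk2 elements and 1 best match of each other member are shown so that their letters can be compared, with capitals for bases that match the p53 consensus. A match is a description of the sequence, its part in the responses was not tested, and no binding was measured in the files analysed here. The paper mapped p53 binding in both cell types, with and without IR, by sequencing of immunoprecipitated chromatin, which was not used here.
Plk2, chr13:111183090-111183109, plus strand: cAACATGCCCGGGCTTGCaT
Plk2, chr13:111184602-111184621, plus strand: GAtCTTGCTTAGACTTGTTg
Plk4, chr3:40603505-40603524, plus strand: GGACATGTCCAcGCTTGgaa
Plk3, chr4:116807737-116807756, minus strand: AGtCAAGgCCAGtCTgGTTT
Plk1, chr7:129299559-129299578, plus strand: AGGCcTGTCTGcACATGTag

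In the RefSeq promoters, from 250 bases before to 50 bases after the start and found for all 4 members, a single p53 decamer without mismatch was absent from every member (it was in 8.36% of 32851 promoters, both strands searched). The cyclic AMP response element TGACGTCA, bound by factors of the CREB and ATF families, was found in Plk2 alone among the members, 62 bases before the start, and in 1.79% of all promoters. The 120 bases before the start of Plk2, chr13:111185132-111185251 (mm9, plus strand), are shown with this element in capitals.
Plk2: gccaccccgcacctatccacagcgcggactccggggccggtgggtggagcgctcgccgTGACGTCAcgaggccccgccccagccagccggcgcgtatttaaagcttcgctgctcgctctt

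The response of Plk2 was set beside that of 18 known p53 target genes. The list was written with earlier results of these data known, so that its direction is no independent evidence. Of the 17 tested in B cells of Trp53+/+ mice, 15 rose and 0 fell, where 12.5% of all genes were called higher. In their non-B cells 16 of 18 rose and 0 fell, where 5.74% of all genes were called higher. The median log2 fold changes were 2.02 and 1.63, against 0.01 and -0.03 over all genes. The targets with the largest rises in B cells were Phlda3, an inhibitor of Akt (log2 fold change 6.17), Cdkn1a (5.83) and Bbc3, the gene of the apoptosis inducer Puma (4.36). The same 3 led in non-B cells, with 4.59, 3.99 and 2.42. The rise of Plk2 lay between those of Cdkn1a and Bbc3 in B cells, and between those of Phlda3 and Cdkn1a in non-B cells, and the differences among them were not tested. Without p53, 1 of 17 rose in B cells, the nuclease gene Aen (1.15), and 4 fell, Trp53inp1 (-1.30), Sesn1 (-0.74), Btg2 (-0.73) and Phlda3 (-0.69), where 13.1% of all genes were called higher and 11.2% lower. Aen (0.74) was also the 1 of 18 that rose in non-B cells without p53, where 0.442% of all genes were called. Over the 24 samples and 13241 genes tested in both cell types, the genes whose log2 values were most like those of Plk2 were Polk, which encodes a translesion DNA polymerase (Pearson's r 0.979), 1700007K13Rik (0.978), 9230114K14Rik (0.978) and Mdm2, the ubiquitin ligase of p53 (0.976). The points of such correlations share libraries and the contrast of 8 irradiated Trp53+/+ samples with the rest, and they are a description.

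Plk3 stood higher after IR than in the controls in each cell type and genotype. Its RPKM in Trp53+/+ B cells was 8.63, 7.44, 7.80 and 7.79 in the controls and 11.4, 12.2, 11.4 and 10.5 after IR. For Trp53-/- B cells it was 6.22 and 7.52 in the controls and 16.4 and 18.2 after IR. The irradiated B cell samples lay above the controls within each genotype, and both Trp53-/- samples lay above all 4 Trp53+/+ samples after IR. The share of all genes with such a gap between the irradiated genotypes was not counted. The values for Trp53+/+ non-B cells were 9.85, 10.9, 9.24 and 9.30 in the controls and 23.5, 18.1, 17.2 and 13.1 after IR. Those of Trp53-/- non-B cells were 9.96 and 6.64 in the controls and 14.3 and 10.2 after IR. The controls and irradiated samples did not overlap in non-B cells either, while the irradiated samples of the 2 genotypes did. With 2 against 2 samples, IR was above the control without overlap for 39.5% of all genes in B cells and for 23.5% of those in non-B cells.

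Plk3 rose in Trp53-/- B cells by a log2 fold change of 1.28 (SE 0.13, 95% interval 1.00 to 1.55, limma adjusted p 1.04e-05), a 2.52-fold ratio of means, where 13.1% of all genes were called higher. Its log2 fold change in Trp53+/+ B cells was 0.50 (SE 0.09, 95% interval 0.31 to 0.69). It passed the adjusted p of limma (0.000521), as did 51.3% of all genes, but not the fold threshold, so it was not called, and the ratio of means was 1.44. The difference between genotypes itself passed, with a response lower by -0.78 in Trp53+/+ B cells (SE 0.15, limma adjusted p 0.00474), where 10.6% of all genes had a lower response in Trp53+/+ than in Trp53-/- cells. That call held in every fit with other settings or with 1 sample left out (log2 differences of -0.91 to -0.65). Plk3 also rose in Trp53+/+ non-B cells, by 0.81 (SE 0.18, limma adjusted p 0.0114), a 1.83-fold ratio of means, and it was 1 of 3 members called there, where 9.85% of all genes were called. With the mean level of receptor genes as a covariate the log2 fold change was 0.91 and no longer passed (limma adjusted p 0.0993). For Trp53-/- non-B cells it was 0.54 (SE 0.25) and did not pass (limma adjusted p 0.330), and the genotype difference in non-B cells, 0.27 with a 95% interval of -0.41 to 0.95, did not pass either (limma adjusted p 0.621, and 0.49 with limma adjusted p 0.317 without the irradiated samples in which over 25% of receptor genes were above 0).

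Plk3 lies on the minus strand at chr4:116801260-116806568 (mm9), and in the annotation Tctex1d4, on the plus strand, overlaps this span. The library kit does not mark strand, so that reads from this overlap cannot be told apart. None of the motifs searched, the p53 decamer, the cyclic AMP response element, the CArG box of serum response factor (in 1.63% of promoters) and the motifs of mitotic promoters named below, was in the RefSeq promoter of Plk3, or in that of Plk4, which says no more than that these letters were not in the window. A list of 16 immediate early genes was set beside Plk3, which shares their quick response to mitogens. In B cells of Trp53+/+ mice 5 of 16 rose and 0 fell (median log2 fold change 0.22), led by the transcription factor genes Jun (2.03), Nr4a1 (1.33) and Junb (1.22), where 12.5% of all genes were called higher. In their non-B cells 5 rose and 0 fell (median 0.42), led by Ier3 (1.503), Jun (1.42) and Fos (1.41), the last of the AP-1 complex with Jun, against 5.74% of all genes called higher. Among Trp53-/- B cells, where Plk3 rose most among the 4 responses, 1 of 16 rose, Junb with 0.62, against 13.1% of all genes, and the median was -0.15. In the corresponding non-B cells 0 of 16 passed limma, with a median of 0.23. The genes most like Plk3 over the 24 samples were Ankrd33b (Pearson's r 0.911), Jph3 (0.907), Snx18 (0.890) and Piwil2 (0.887), a looser likeness than for the other members. Its correlation with Plk2 was 0.465.

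Plk1 had the largest coefficient of variation within a group of any member, 66.3% over the 4 non-B controls of Trp53+/+ mice. Its RPKM in B cells of Trp53+/+ mice was 8.41, 5.20, 5.61 and 4.59 in the controls and 5.42, 5.29, 3.35 and 3.66 after IR. B cells of Trp53-/- mice had 4.35 and 4.57 RPKM in the controls and 6.44 and 5.18 after IR. The Trp53+/+ groups overlapped, and the Trp53-/- samples were apart, with IR the higher, as for 39.5% of all genes. Plk1 in Trp53+/+ non-B cells stood at 29.5, 26.2, 6.69 and 8.60 RPKM in the controls and at 8.48, 4.65, 4.41 and 4.62 after IR. For Trp53-/- non-B cells it stood at 6.02 and 13.8 in the controls and at 7.76 and 6.15 after IR. Non-B controls 1 and 2 were thus the highest of all samples, and the controls 3 and 4 overlapped with the irradiated samples.

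Plk1 was called in none of the 4 responses to IR. Its log2 fold change in Trp53+/+ non-B cells was -1.37 (SE 0.45, 95% interval -2.36 to -0.38, limma adjusted p 0.0551), a mean of 5.54 RPKM after IR against 17.7 in the controls. With the replicate number as a block shared by both genotypes, the same log2 fold change passed (limma adjusted p 0.0267). Whether samples of one number form pairs was not established. Without the non-B controls 1 and 2 the log2 fold change was -0.47 (limma adjusted p 0.362). The log2 fold change in Trp53+/+ B cells was -0.38 (SE 0.19, 95% interval -0.80 to 0.04, limma adjusted p 0.118). There it passed with the mean level of receptor genes as a covariate (-0.66, limma adjusted p 0.0336) and without the irradiated samples in which over 25% of receptor genes were above 0 (-0.65, limma adjusted p 0.0240). In Trp53-/- cells it was 0.34 in B cells (limma adjusted p 0.352) and -0.38 in non-B cells (limma adjusted p 0.832). The genotype difference did not pass in B cells (-0.72, 95% interval -1.45 to 0.0050, limma adjusted p 0.157) or in non-B cells (-0.99, 95% interval -2.71 to 0.72, limma adjusted p 0.455), and the latter was -0.091 without the non-B controls 1 and 2 (limma adjusted p 0.928).

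The Plk1 level moved with markers of dividing and of erythroid cells in non-B samples. Summed over 14 proliferation markers, the Trp53+/+ controls held 633, 614, 247 and 266 RPKM and the irradiated samples 280, 236, 177 and 202. The 10 erythroid markers gave 468, 462, 166 and 176 RPKM in these controls and 132, 42.4, 41.7 and 59.5 after IR, and none of the 10 was at 0 in any of these groups. Among the irradiated Trp53+/+ non-B samples, sample 1 had the highest Plk1 level and the highest sums of both lists. Controls 1 and 2 of these mice also differed from controls 3 and 4 in other markers. The T cell sums were 407 and 426 RPKM against 592 and 599, and the NK cell sums 187 and 199 against 279 and 310. Myeloid markers summed to 670 and 636 RPKM against 455 and 496. Among Trp53-/- non-B cells the erythroid sum was 92.4 and 341 in the controls and 141 and 127 after IR, and control 2 was again the higher for Plk1. In B cells the erythroid sum and Plk1 did not move together in this way. Trp53+/+ B cell controls had erythroid sums of 154, 93.1, 75.5 and 154 RPKM beside Plk1 at 8.41, 5.20, 5.61 and 4.59. For Trp53-/- B cell controls the sums were 63.6 and 220 beside Plk1 at 4.35 and 4.57. After IR 6 of the 10 erythroid markers were called lower in Trp53+/+ non-B cells and 7 of 10 in Trp53+/+ B cells, where 4.11% and 12.2% of all genes were called lower. Car1, a carbonic anhydrase gene, had log2 fold changes of -5.61 and -3.31. The median of the list was -2.39 and -1.44, against -0.03 and 0.01 over all genes. The part of these cells in the Plk1 values was not tested. In such bulk samples fewer cells of a type and less RNA per cell cannot be told apart.

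**Figure D3:**
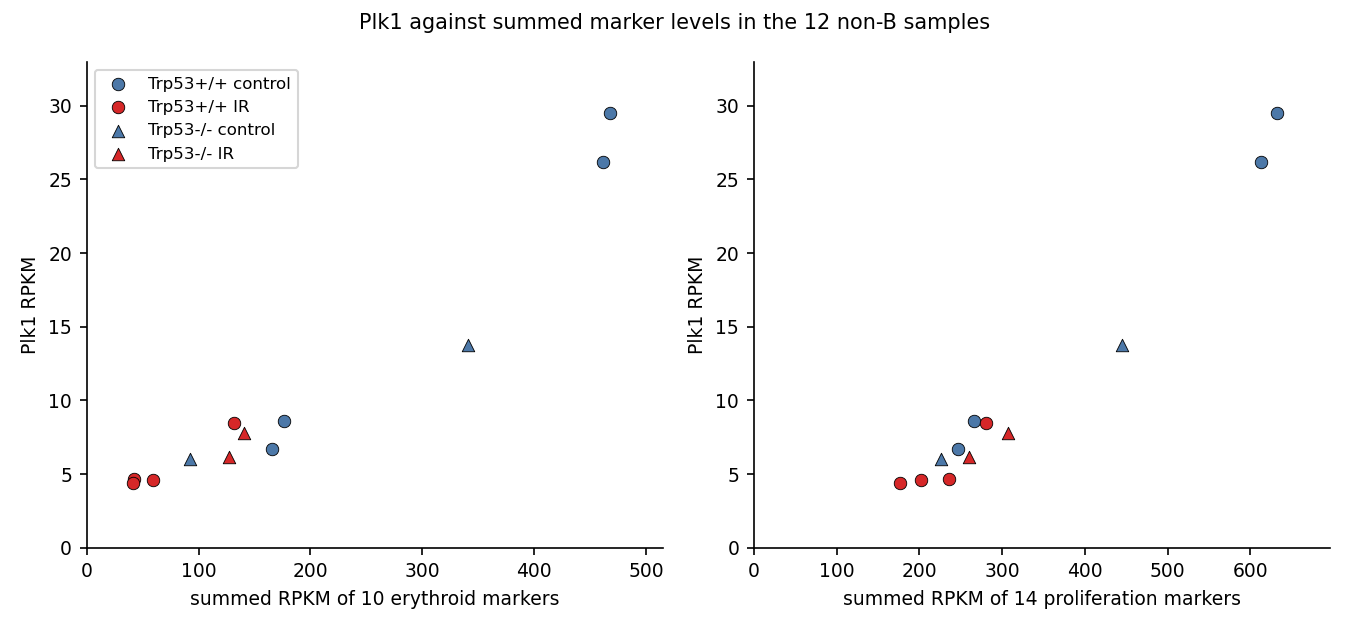
Plk1 RPKM in the 12 non-B samples against the summed RPKM of 10 erythroid markers (left) and of 14 proliferation markers (right), 1 point per sample, with blue for control, red for IR, circles for Trp53+/+ and triangles for Trp53-/-. Trp53+/+ controls 1 and 2, at 29.5 and 26.2 RPKM of Plk1, have the highest sums of both lists, and Trp53-/- control 2, at 13.8 RPKM, comes next.

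Plk1 lies on the plus strand at chr7:129302951-129313389 (mm9). It was the 1 member whose RefSeq promoter held the cell cycle genes homology region (CHR), searched as TTTGAA and TTCGAA and bound by the DREAM and B-Myb-MuvB complexes, and the CCAAT box, searched as CCAAT and bound by NF-Y. These motifs are common, in 19.23% and 37.41% of all promoters. They are shown in capitals because they are the elements known from promoters of mitotic genes, which are described next. The CCAAT box starts 14 bases before the start, in chr7:129302909-129302948, and the CHR at base 31, in chr7:129302969-129302998 (both mm9, plus strand).
Plk1, before the start: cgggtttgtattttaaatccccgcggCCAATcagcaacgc
Plk1, after the start: cagcgccgcgTTTGAAttcggggaggagcg

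Of 14 genes of mitotic entry and Plk1 activation, 8 fell and 0 rose in Trp53+/+ B cells, with a median log2 fold change of -0.72, where 12.2% of all genes were called lower. They were led by Cdc25b, a phosphatase that activates Cdk1 (-2.65), by Cdk1 itself (-1.35) and by Ccnb1, the gene of its cyclin partner (-1.16). In the non-B cells of these mice 7 of 14 fell and 0 rose, with a median of -1.28, where 4.11% of all genes were called lower. The largest falls there were those of Ccnb1 (-2.27), Ccnb2 (-1.85) and Cdk1 (-1.71). Genes named for Trp53-/- cells were chosen after their values were seen. There 1 of the 14 fell in B cells, Cdc25b with -2.56, and 2 rose, Mybl2, the gene of B-Myb, with 1.42, and Wee1, an inhibitor of Cdk1, with 1.33, where 11.2% of all genes were called lower and 13.1% higher. Cdc25b also fell in Trp53-/- non-B cells, with -0.99, the 1 of 14 called there. Of the docking partners of Plk1 and its partners in the spindle and cytokinesis, 8 of 16 fell in Trp53+/+ B cells (median -0.53), led by Cep55 (-0.92), Kif2c (-0.85) and Espl1 (-0.79), and 2 of 17 fell in Trp53+/+ non-B cells (median -0.996), Kif20a (-1.30) and Racgap1 (-0.90). None of them was called in Trp53-/- cells. Of the 14 proliferation markers 8 fell and 2 rose in Trp53+/+ B cells, with Rrm2, a subunit of ribonucleotide reductase, at 1.56 and Tk1, thymidine kinase, at 0.81. In their non-B cells 4 fell, Ccnb1, the spindle gene Aspm (-1.80), Cdk1 and the replication gene Mcm5 (-0.96). The genes most like Plk1 over the 24 samples were Ckap2l and Spag5, of the mitotic spindle (Pearson's r 0.973 each), Cdca8, of the chromosomal passenger complex (0.972), and Clspn, the checkpoint mediator Claspin (0.970).

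**Figure D4:**
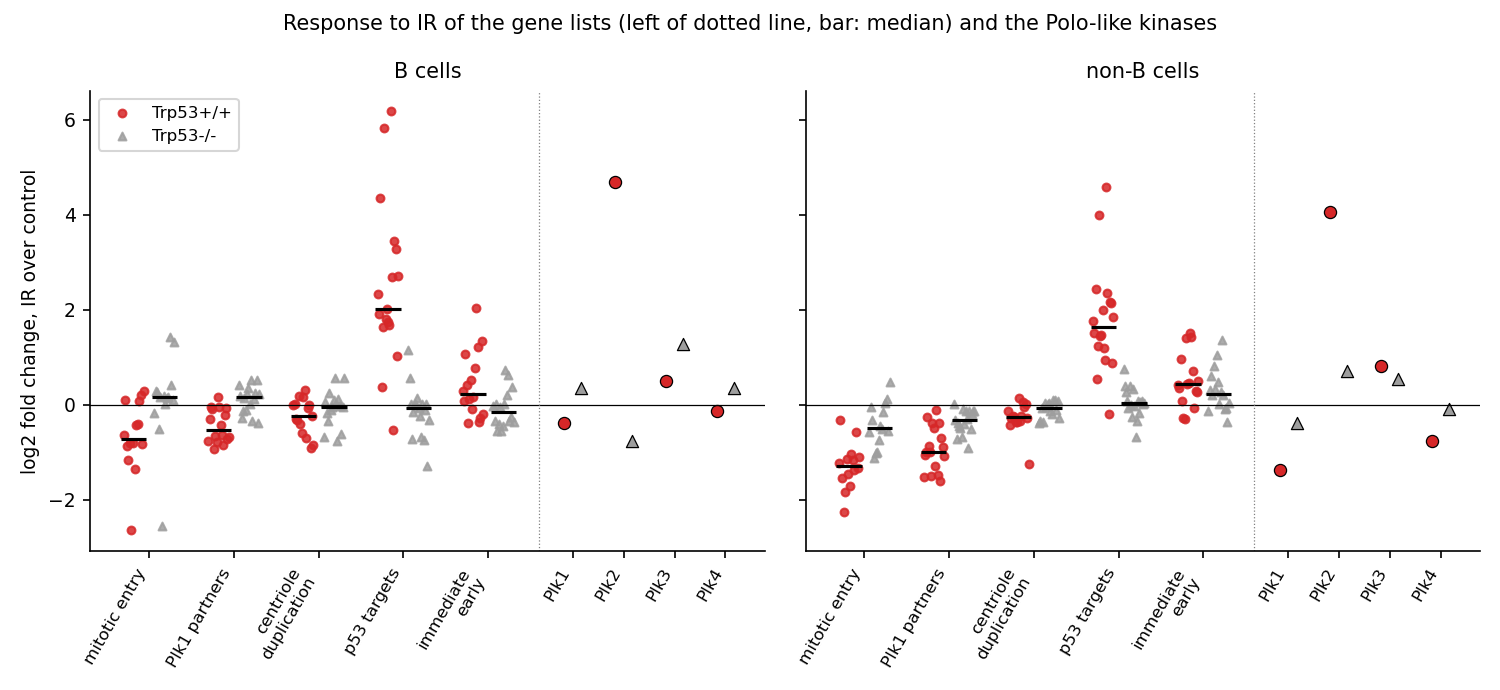
log2 fold change after IR of the genes of 5 lists and of the 4 Polo-like kinases in B cells (left) and non-B cells (right), 1 point per gene, with red circles for Trp53+/+, grey triangles for Trp53-/- and bars for list medians. In Trp53+/+ cells the medians of the p53 targets are 2.02 and 1.63 and those of mitotic entry -0.72 and -1.28, while in Trp53-/- cells Plk3 in B cells (1.28) is the highest of the members.

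Plk4 had the smallest log2 fold change of the members in 3 of the 4 responses to IR. Its RPKM in B cells with p53 was 9.48, 8.05, 7.26 and 6.63 in the controls and 6.71, 7.62, 6.66 and 7.05 after IR. B cells without p53 had 7.37 and 7.46 RPKM in the controls and 10.2 and 9.14 after IR. The Trp53+/+ groups overlapped and the Trp53-/- groups did not, a separation that 71.5% of all genes showed with 2 against 2 samples. Values in Trp53+/+ non-B cells were 15.8, 15.1, 7.44 and 7.06 in the controls and 6.23, 5.66, 5.43 and 6.78 after IR. Those in Trp53-/- non-B cells were 7.99 and 10.9 in the controls and 9.26 and 8.18 after IR. As for Plk1, the non-B controls 1 and 2 were the highest of all samples, but here all 4 controls lay above the irradiated Trp53+/+ samples, as for 12.1% of all genes.

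Plk4 fell in Trp53+/+ non-B cells by 0.77 on the log2 scale (SE 0.25, 95% interval -1.31 to -0.23) and was called (limma adjusted p 0.04998). The call was lost under most alternatives and in 10 of the 12 fits that left out 1 sample, and without the non-B controls 1 and 2 the log2 fold change was -0.25 (limma adjusted p 0.324). In the other responses Plk4 was not called, with log2 fold changes of -0.14 in Trp53+/+ B cells (limma adjusted p 0.296), 0.36 in Trp53-/- B cells (limma adjusted p 0.0877) and -0.10 in Trp53-/- non-B cells (limma adjusted p 0.932). The genotype difference was -0.50 in B cells (95% interval -0.92 to -0.09, limma adjusted p 0.0891) and -0.67 in non-B cells (95% interval -1.61 to 0.26, limma adjusted p 0.347), and the latter was -0.16 without the non-B controls 1 and 2 (limma adjusted p 0.723). Plk4 lies on the plus strand at chr3:40603941-40620805 (mm9). Of 15 genes of centriole duplication, 4 fell and 0 rose in Trp53+/+ B cells (median -0.24), with Nek7 (-0.91), Stil, the activator of Plk4 (-0.84), and Cep97, a suppressor of cilium growth (-0.71), as the largest, against 12.2% of all genes called lower. Of the same 15, 3 fell in Trp53-/- B cells, Cep97 (-0.76), Btrc (-0.68) and Nek7 (-0.62), against 11.2% of all genes, and in non-B cells 0 of 15 were called by limma in either genotype. Over the 24 samples Plk4 was most like Smc2, a condensin subunit (Pearson's r 0.970), Atad5 (0.966), Dtl (0.939) and Exo1 (0.935), which act in DNA replication and repair. Its correlation with Plk1 was 0.843 and that with Plk2 was -0.521.

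The order of the members changed with IR and differed between genotypes. The mean in Trp53+/+ B cell controls was 7.91 RPKM for Plk3, 7.85 for Plk4, 5.95 for Plk1 and 3.51 for Plk2, and the ranges of neighbours overlapped except between Plk1 and Plk2. Among Trp53+/+ non-B controls Plk1 led with 17.7, ahead of Plk4 with 11.3, Plk3 with 9.82 and Plk2 with 3.05 RPKM, with overlap between the first 3. Plk2 was the lowest member in every group except irradiated Trp53+/+ cells, where it was the highest. After IR the means in Trp53+/+ B cells were 101 ± 5.94 RPKM (SD, n = 4) for Plk2, 11.4 ± 0.700 for Plk3, 7.01 ± 0.440 for Plk4 and 4.43 ± 1.076 for Plk1, all apart. Those in Trp53+/+ non-B cells were 55.2 ± 2.53 for Plk2, 17.97 ± 4.26 for Plk3, 6.03 ± 0.608 for Plk4 and 5.54 ± 1.97 for Plk1, where the last 2 overlapped. For irradiated Trp53-/- cells of both types the order was Plk3, Plk4, Plk1 and Plk2. Ordering by the median gave the same order in all 8 groups.

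The summed RPKM of the 4 kinases was 23.1 to 29.3 in Trp53+/+ B cell controls and 116 to 129 after IR. Plk2 made up 9.44% to 17.9% of this sum in the controls and 79.7% to 83.2% after IR. Its share in Trp53+/+ non-B cells went from between 6.32% and 7.79% to between 57.6% and 69.7%. The irradiated Trp53+/+ samples did not overlap with any other sample in this share. In irradiated Trp53-/- B cells the sum was 34.1 and 35.9 RPKM, and Plk3 was the largest part with 45.7% and 53.4%, against 4.56% and 8.03% for Plk2. Plk3 was also the largest part in irradiated Trp53-/- non-B cells, with 40.7% and 39.3%. Some controls shared this, such as Trp53+/+ non-B controls 3 and 4 with 36.5% and 34.9%.

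**Figure D5:**
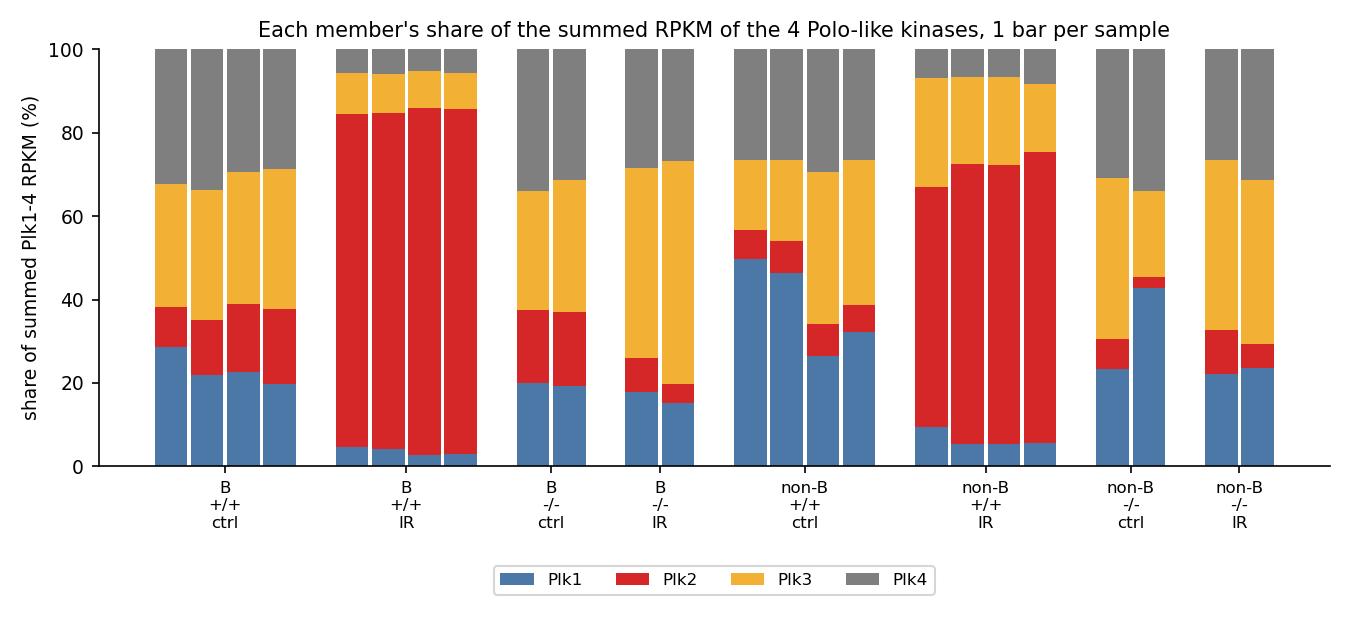
Share of each Polo-like kinase in the summed RPKM of the 4, 1 bar per sample, by cell type, Trp53 genotype and treatment. Plk2 (red) takes 57.6% to 83.2% of the sum in the 8 irradiated Trp53+/+ samples. Plk3 (yellow) has the largest share in every irradiated Trp53-/- sample and in some controls.

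Without IR, loss of p53 left all 4 members uncalled, as it did nearly all genes (0.0506% called in B cells, against 0.0428% for non-B cells). Plk2 in non-B cells had a log2 fold change of -0.90 in Trp53-/- against Trp53+/+ controls (95% interval -1.72 to -0.08, limma adjusted p 0.844), and of -0.38 without the non-B controls 1 and 2. Between unstressed Trp53+/+ cells, Plk1 was called higher in non-B than in B cells, by 1.26 (SE 0.38, limma adjusted p 0.0142), where 24.6% of all genes were called and 17.2% were called higher. Without the non-B controls 1 and 2 this was 0.36 (limma adjusted p 0.359), and Plk2 then passed as lower in non-B cells (-0.77, limma adjusted p 0.000256 against 0.351 with all samples). The other members did not pass, with 0.29 for Plk3 (limma adjusted p 0.0814) and 0.42 for Plk4 (limma adjusted p 0.127).

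The responses of Trp53+/+ B and non-B cells were compared in a fit over their 16 samples, taken as independent. Both cell types were fractions of spleens, and any sharing of a spleen was left out of this fit and of the exact tests. None of the 4 differences passed, where 28% of all genes did. With the replicate number as a block none passed either (limma adjusted p 0.0626 to 0.170). The non-B samples still held B cell markers, and the part of such B cells in these comparisons was not tested. The non-B response minus the B response was -0.61 for Plk2 (95% interval -1.24 to 0.0080, limma adjusted p 0.133), -0.99 for Plk1 (95% interval -2.14 to 0.15, limma adjusted p 0.186), 0.31 for Plk3 (95% interval -0.07 to 0.70, limma adjusted p 0.219) and -0.63 for Plk4 (95% interval -1.27 to 0.010, limma adjusted p 0.134). Without the non-B controls 1 and 2 these values were -0.097 for Plk2, -0.090 for Plk1, 0.39 for Plk3 and -0.11 for Plk4, with limma adjusted p of 0.181 to 0.881. Without the irradiated samples in which over 25% of receptor genes were above 0, that of Plk1 was -0.50 (limma adjusted p 0.647), and that of Plk3 was 0.59 and passed (limma adjusted p 0.0226). After IR itself, the mean Plk2 level in non-B cells was 0.545 times that in B cells, and that of Plk3 was 1.58 times, both without overlap of the ranges (exact two-sided permutation p = 0.0286 each, the smallest that 4 against 4 samples allow, among 16 such tests), as for 51.3% of all genes.

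Plk5, the remaining family member, which lacks a functional kinase domain, was listed at 0 in 14 of the 16 samples other than irradiated Trp53+/+ samples and at 0.0520 RPKM or less in the remaining 2. In irradiated Trp53+/+ samples it was 0.122 to 0.383 RPKM in B cells, with 0.0460 to 0.271 in non-B cells, an estimated 1 to 6 reads. In 6 of these 8 libraries the share of receptor genes above 0 was higher than in any of the other 16, and its part in the Plk5 values was not tested.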

How the data were processed

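Per the labels and the methods, total RNA was depleted of ribosomal RNA and sequenced from TruSeq v2 libraries, which do not mark strand. The authors masked bases of low quality, aligned the reads to mm9 with TopHat2 (2.0.8 in the submitters' notes), kept 1 read of each set of duplicates, counted reads on UCSC genes with featureCounts (1.4.5) and deposited RPKM values per gene, scaled to the reads on exons, in 1 file per sample. Read counts were not used here, so the DESeq2 test of the authors was not repeated.

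Values were tested as log2(RPKM + 0.5) with limma 3.58.1 in R 4.3.3 (mean-variance trend, Benjamini-Hochberg adjustment over all genes tested). Each cell type was fitted over its 12 samples, for genes that exceeded an RPKM of 1 in any Trp53+/+ sample, and both cell types together over the 16 Trp53+/+ samples. The main fits took all samples as independent. The thresholds, an adjusted p under 0.05 and a log2 fold change beyond 0.58, were those of the study. A fold change on this scale understates the change of low genes. Differences between 2 responses needed the adjusted p alone. The fits were checked on simulated data. Single values were compared by exact permutation in Python 3.11.15 (scipy 1.17.1). The deviations of same-numbered control and irradiated samples correlated at 0.156 to 0.323 in Trp53+/+ non-B cells and at 0.0152 to 0.0868 in Trp53+/+ B cells. In Trp53-/- cells they correlated at -0.253 in non-B and at 0.0466 in B cells. Those of same-numbered Trp53+/+ B and non-B samples correlated at -0.0494 to 0.350 in controls and at -0.103 to 0.287 after IR. Samples of different numbers were not compared in this way, so these values cannot show that the numbers pair samples. Depth was the number of reads at which the lowest RPKM values, times the exonic length of their genes (found for 91.9%), came nearest to whole numbers. At that depth 57.3% to 71.0% of them lay within 0.1 of one, so depths are approximate, and no error was computed for them. Loci and lengths came from GENCODE vM1 on NCBIM37, which mm9 represents, and promoters from RefSeq, each matched to mm9 once. The members, lists and motifs were chosen with earlier results of these data known. Named genes were the members, Plk5, Trp53, Cdkn1a, at most the 3 called genes of each list with the largest change in Trp53+/+ cells of each type, and the 4 genes most correlated with each member. The proliferation markers and the genes named for Trp53-/- cells did not follow this rule. Of the proliferation markers, the 2 that rose in Trp53+/+ B cells and all 4 called in Trp53+/+ non-B cells were named. The 8 that fell in Trp53+/+ B cells were not listed. Genes named for Trp53-/- cells were chosen after their values were seen. Of the erythroid markers Car1 alone was named. Alternatives were other pseudocounts, filters, scalings and blocks, a receptor gene covariate and samples left out.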

Additional observations from a re-analysis of the deposited data

Results flagged for a closer look

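The difference between genotypes in the response to IR passed limma for Plk2 in B cells (log2 difference 5.45, higher in 4 of 4 irradiated Trp53+/+ samples than in any Trp53-/- sample) and in non-B cells (3.35, likewise), and for Plk3 in B cells (-0.78, with both irradiated Trp53-/- samples above all 4 irradiated Trp53+/+ samples). The shares of all genes with such gaps between the irradiated genotypes were not counted.

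In irradiated Trp53+/+ non-B cells, sample 1 lay far from the others for Plk1, at 8.48 RPKM against 4.41 to 4.65, a gap of 0.94 of the range of the group, beyond Dixon's 95% critical value for 4 samples. It was 1 of 16 groups tested, and chance flags about 1 group in 20.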

How the results depend on the processing

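Of 480 values of the members under other settings, 453 kept their direction and side of the threshold, as did 482 of 512 with 1 sample left out. Plk2 in both Trp53+/+ responses and both genotype differences, and Plk3 in Trp53-/- B cells and its genotype difference in B cells, kept their calls in all of these fits. The causes of the changes were not tested.

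In Trp53+/+ B cells Plk1 passed with the receptor covariate (-0.66) and without the irradiated samples rich in receptor reads (-0.65), and Plk3 with quantile normalization (0.58). Plk2 in Trp53-/- B cells was lost with quantile normalization (-0.70) and over left-out samples ranged from -1.13 to -0.42. In Trp53+/+ non-B cells Plk1 passed with quantile normalization (-1.37) and with each form of the replicate block (-1.37 throughout, adjusted p of limma 0.0267 for the number, 0.0326 within genotype and 0.0134 with the Trp53-/- numbers crossed, the last 2 chosen after seeing the data), and ranged from -1.73 to -1.04 over left-out samples. Plk3 there was lost with the receptor covariate (0.91). Plk4 there was lost with a pseudocount of 1 (-0.73), median-ratio scaling (-0.73), the receptor covariate (-0.75), without samples rich in receptor reads (-0.79), without controls 1 and 2 (-0.25), and with no filter, a filter of 4 samples, Trp53+/+ samples alone, no trend or a block within genotype (-0.77 in each), and ranged from -0.96 to -0.59 over left-out samples.

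Of values that did not pass, the unstressed genotype difference in non-B cells turned to 0.25 for Plk1 and 0.35 for Plk4 without controls 1 and 2, and the unstressed difference between cell types to -0.10 for Plk4. That of Plk1 was lost (0.36) and that of Plk2 gained (-0.77, and -0.68 with quantile normalization). The cell type difference in response turned to 0.028 for Plk2 with quantile normalization, and passed for Plk3 without samples rich in receptor reads (0.59). Over left-out samples the calls or signs changed within these ranges: Plk4 genotype difference in B cells, -0.58 to -0.41, unstressed Plk4 by genotype in B cells, -0.14 to 0.023, Trp53-/- non-B response, -0.94 to 0.19 for Plk1 and -0.31 to 0.12 for Plk4, Plk3 genotype difference in non-B cells, -0.0055 to 0.55, unstressed genotype difference in non-B cells, -0.53 to 0.022 for Plk3 and -0.39 to 0.039 for Plk4, cell type difference in response, -1.35 to -0.66 for Plk1, -0.82 to -0.43 for Plk2, 0.18 to 0.45 for Plk3 and -0.81 to -0.44 for Plk4, and unstressed non-B against B cells, 0.93 to 1.62 for Plk1 and 0.24 to 0.61 for Plk4.

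Counts of genes called moved by over 1.5 times as follows. In Trp53+/+ non-B cells 1381 became 444 with the receptor covariate and 918 without irradiated sample 3. In Trp53-/- non-B cells 62 became 36 without a filter, 24 with quantile normalization, 5 without samples rich in receptor reads, 17 with the replicate block, 2 within genotype and 108 crossed, and 0 to 49 over left-out samples. The genotype difference in non-B cells went from 1031 to 311 with the receptor covariate, to 610 with the block within genotype and to 307 to 1347 over left-out samples, and in B cells from 2594 to 1257 to 2691 over left-out samples. Between unstressed genotypes, 7 in B cells became 3 with the block within genotype and 5 to 13 over left-out samples, and 6 in non-B cells became 11 with the block, 46 crossed and 3 to 7 over left-out samples. The replicate block changed no other call of a member. With 2 Trp53-/- samples per group, differences there rest on few values, and at these depths an RPKM of 0 does not exclude a low level.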
